A study of Mus musculus with 9 samples.

Results

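The comparison described here is that of mouse brain tissue 4 d after an intracerebral injection of lipopolysaccharide (LPS) with tissue taken 1 d after it. It uses 6 of the 9 arrays of the series, 3 labelled LPS 1 d and 3 labelled LPS 4 d, chosen by their labels alone, and 45037 probe sets that are not controls. All animals were male C57Bl/6J mice aged 10 to 12 weeks. They received a stereotaxic injection of LPS into the striatum, recovered for 1 d or 4 d and were perfused with saline before the injected side of the brain was dissected. Each array held RNA pooled from 3 mice, and different mice were used at each time, so no animal was followed through time. The remaining 3 arrays, labelled PBS 4 d, came from the same kind of mice given phosphate-buffered saline by the same route and taken at 4 d. There was no PBS array at 1 d, so an effect of the injection itself that fades between the 2 times cannot be told apart from one of LPS.

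LPS is a component of the outer membrane of Gram-negative bacteria that is sensed by Toll-like receptor 4 on microglia, the resident macrophages of the brain. Sensing starts an induction phase in which NF-kB and interferon-driven genes are transcribed, cytokines and chemokines are released and leukocytes are drawn from the blood. In a self-limiting response this is followed by a resolution phase, in which these genes are switched off and phagocytes clear dead cells and debris. The question addressed was which genes and pathways exchanged places between the early and the late time.

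The deposited values had already been normalized between arrays, a step that makes the array medians nearly equal. The median log2 expression value per array lay between 4.32 and 4.37. Values up to 3.49 were read as background, this being the highest of the means of the 23 nonspecific control probe sets. Markers of the labelled tissue were present. Transcripts of the neuronal gene *Snap25*, the myelin gene *Mbp* and the striatal gene *Ppp1r1b* were far above background on all 9 arrays, and none of the 3 was called between 1 d and 4 d (log2 differences of -0.11, 0.04 and -0.08). None of 16 markers of striatal projection neurons and none of 19 pan-neuronal genes was called in either direction. Over all genes 1.84% were called higher and 1.37% lower, so lists of this size hold few calls in any case. In 9 of 19 pan-neuronal genes the 3 LPS 4 d arrays all lay below the LPS 1 d arrays, against 9.76% of all genes. The summed level of this list was 0.977 to 1.00 times the PBS mean at 1 d and 0.887 to 0.938 times at 4 d. Arrays are named below by time and replicate number, all after LPS unless PBS is named. One of them, 1 d replicate 2, had the highest summed level of its group in the antiviral, GTPase, chemokine, neutrophil and reactive astrocyte lists described below, and the totals are given with and without it.

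In total, 315 of 17097 genes were called higher at 4 d, which is 1.84% of those tested, and 234 were called lower, which is 1.37%. A gene was represented by its brightest probe set and was called when limma, a linear model fitted to all probe sets, gave an adjusted p (Benjamini-Hochberg) under 0.05 with at least a 1.5-fold change. Over probe sets the counts were 500 higher (1.11%) and 383 lower (0.85%). The median log2 change was 1.03 among genes called higher, -1.24 among those called lower and 0.0024 over all genes. Falls were the larger, with 55 genes lower by at least 4-fold against 22 higher by as much. In all called genes the 3 arrays of one time lay clear of the 3 of the other, a separation that 11.4% of all genes showed upwards and 9.76% downwards. At 1 d, 56 of the genes called higher had a mean at or below background, as did 50 of the genes called lower at 4 d, and for these the measured change is limited by the background. For 10 genes called higher and 11 called lower both means were at or below background, and no change is given for them, although 7 of these genes are counted in the lists below. Without 1 d replicate 2 the gene counts were 202 higher and 154 lower. With 3 arrays against 3 an exact permutation test cannot give a two-sided p below 0.1, so single genes are reported with limma's adjusted p. It sets a change against the spread between pools, taken over all 3 groups, PBS included, and moderated across probe sets.

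**Figure D1:**
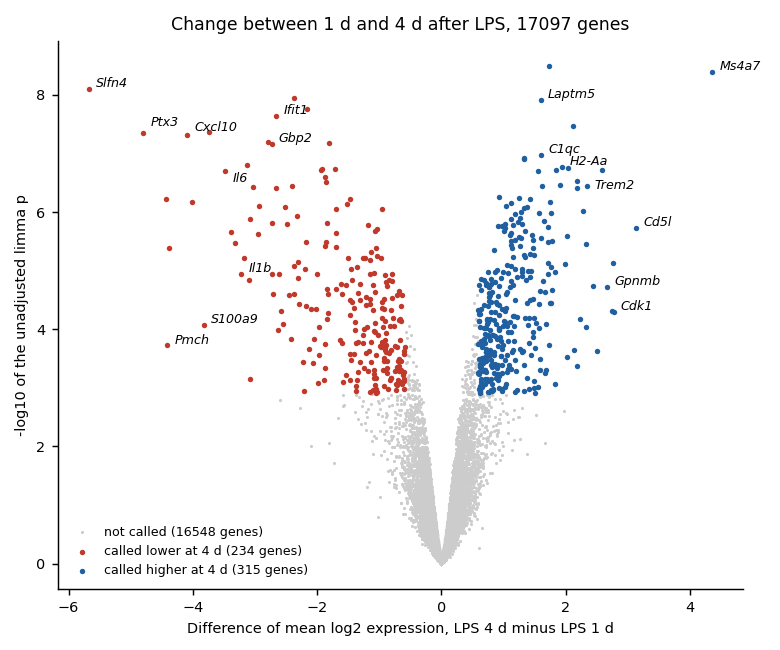
Each point is one of 17097 genes. The horizontal axis gives the difference of mean log2 expression, LPS 4 d minus LPS 1 d (3 arrays each), and the vertical axis gives -log10 of the unadjusted limma p. The 234 genes called lower (red) reach -5.67 for *Slfn4*, and the 315 called higher (blue) reach 4.36 for *Ms4a7*.

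The sequences just upstream of several genes show letters that recur in 3 of the groups described below. Among genes that fell these are GTPases and antiviral genes driven by interferon, and CXC chemokines and NF-kB feedback genes. Among genes that rose they are cell cycle genes. Promoters were taken from RefSeq (build GRCm38.p6), from 250 bases before to 50 bases after each gene's start, and searched on both strands. The table held 32851 such promoters. More motifs were searched than those described by group below. The GAS-type letters TTCNNNGAA stood in 18.1% of 221 promoters of all genes called lower. They stood in 3.41% of 323 promoters of all genes called higher and in 8.30% of all promoters. The PU.1 letters GAGGAAGT stood in 3.17%, 8.05% and 3.20%, in the same order. The E-box letters CACGTG stood in 7.69%, 8.05% and 7.15%, and the longer GTCACGTG in 3.17%, 2.79% and 2.25%. The letters GAAANNGAA, a core of the interferon-stimulated response element that interferon regulatory factors bind, stood in 7 of 9 promoters of the interferon-inducible GTPases that fell and in 11 of 23 promoters of the antiviral genes that fell. They stood in 8.56% of all promoters and in 16.3% of 221 promoters of all genes called lower. Of other interferon-related genes that fell, 0 of 4 promoters of the Schlafen family and 1 of 7 of the IRF and STAT factors held them. Uncalled members of these lists were not tallied, so whether the letters go with falling was not tested. The last 120 bases before the start of *Gbp2*, *Tgtp1*, *Irgm1* and *Ifit1* are shown, with each match in capitals (on either strand, with overlapping matches joined). They lie at chr3:142620543-142620662 on the plus strand, chr11:48992247-48992366 on the minus strand, chr11:48871421-48871540 on the minus strand and chr19:34640769-34640888 on the plus strand.
Gbp2: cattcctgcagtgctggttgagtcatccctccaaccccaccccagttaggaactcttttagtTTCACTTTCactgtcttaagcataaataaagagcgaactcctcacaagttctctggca
Tgtp1: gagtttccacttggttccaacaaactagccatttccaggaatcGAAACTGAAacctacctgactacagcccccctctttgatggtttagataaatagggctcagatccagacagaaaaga
Irgm1: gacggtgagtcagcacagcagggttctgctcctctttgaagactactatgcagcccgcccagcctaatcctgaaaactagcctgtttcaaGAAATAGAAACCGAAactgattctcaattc
Ifit1: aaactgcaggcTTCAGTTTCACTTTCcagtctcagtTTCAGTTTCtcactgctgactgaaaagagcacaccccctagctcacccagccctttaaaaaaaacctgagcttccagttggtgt

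The NF-kB consensus stood in each of the 3 promoters held for CXC chemokines that fell and in 6 of 10 promoters of the NF-kB feedback genes that fell. It stood in 2 of 4 promoters of cytokines that fell and in 0 of 2 of CC chemokines that fell, against 14.9% of 221 promoters of all genes called lower and 8.46% of all promoters. The stretches before *Cxcl1*, *Cxcl2* and *Il6* are shown with these matches in capitals. They lie at chr5:90891125-90891244 on the plus strand, chr5:90903779-90903898 on the plus strand and chr5:30012994-30013113 on the plus strand.
Cxcl1: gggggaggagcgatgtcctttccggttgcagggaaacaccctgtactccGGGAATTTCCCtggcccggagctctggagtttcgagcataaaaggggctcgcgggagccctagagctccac
Cxcl2: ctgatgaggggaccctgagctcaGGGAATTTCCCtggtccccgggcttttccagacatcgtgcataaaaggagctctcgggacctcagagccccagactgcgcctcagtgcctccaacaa
Il6: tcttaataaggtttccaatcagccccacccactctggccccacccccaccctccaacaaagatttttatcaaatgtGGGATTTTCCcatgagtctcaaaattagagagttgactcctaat

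Among cell cycle genes that rose, the CCAAT box stood in 12 of 14 promoters and the cell cycle homology region TTTGAA in 11 of 14. Their shares were 37.4% and 17.9% of all promoters, and 41.8% and 22.3% of 323 promoters of all genes called higher. Both motifs are short and frequent. They are in capitals, on either strand, in the stretches before *Cdk1* and *Ube2c*, at chr10:69352913-69353032 on the minus strand and chr2:164769809-164769928 on the plus strand. These matches describe the letters in a window and no binding was measured.
Cdk1: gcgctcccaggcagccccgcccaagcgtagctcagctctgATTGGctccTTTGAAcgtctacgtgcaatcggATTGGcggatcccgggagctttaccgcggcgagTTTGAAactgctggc
Ube2c: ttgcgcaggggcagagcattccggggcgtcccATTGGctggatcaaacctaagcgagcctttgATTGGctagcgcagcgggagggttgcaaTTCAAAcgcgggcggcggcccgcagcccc

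Chemokines of the induction phase were among the steepest fallers. The neutrophil-attracting chemokine *Cxcl2* had log2 values of 6.35, 7.62 and 6.90 at 1 d and of 3.62, 1.77 and 2.35 at 4 d. Its mean at 4 d was at background, so it fell at least 10.7-fold (adjusted p = 0.0012), and its PBS values of 2.04 to 2.24 overlapped those at 4 d. *Cxcl1*, another ligand of the same receptor, fell from 7.46, 8.44 and 7.73 to 4.43, 3.15 and 4.00, by 4.02 on the log2 scale (SE 0.33, adjusted p = 0.000493). In contrast to *Cxcl2* it remained clear of PBS at 4 d, where the PBS arrays read 2.06 to 2.34. The interferon-induced chemokine *Cxcl10*, which recruits lymphocytes, had 9.23, 9.83 and 9.61 at 1 d and 5.54, 4.92 and 5.94 at 4 d. It fell by 4.09 (SE 0.25, adjusted p = 0.000179) and was still 2.75 above PBS (adjusted p = 0.000283). Of 15 CXC chemokines 4 fell and 1 rose, with a list median of -0.08. Of 19 CC chemokines 5 fell and 1 rose, with a median of -0.20. *Ccl2*, the main attractant of monocytes, fell from 8.01, 8.69 and 8.59 to 4.91, 4.22 and 4.93, by 3.74 (SE 0.22, adjusted p = 0.000179). *Ccl12* and *Ccl4* fell by 3.03 and 2.79, and their arrays at the 2 times did not overlap. The riser among CXC chemokines was *Cxcl13*, which attracts B cells (1.39, adjusted p = 0.0343), and that among CC chemokines was *Ccl8* (1.07, adjusted p = 0.0273). Each of these 2 rises lost its call without any one of 6 arrays: all 3 LPS 1 d arrays, 4 d replicates 1 and 3 and PBS 4 d replicate 2 for *Cxcl13* (adjusted p up to 0.13), and 1 d replicates 1 and 2, all 3 LPS 4 d arrays and PBS 4 d replicate 3 for *Ccl8* (up to 0.1).

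Cytokine genes fell as well. *Il6*, which encodes a pyrogenic cytokine, had values of 4.55, 5.68 and 5.38 at 1 d, whereas the values of 1.63, 1.96 and 1.57 at 4 d and of 1.75 to 1.82 after PBS were at background. It fell at least 3.28-fold (adjusted p = 0.000293). *Il1b*, the precursor of interleukin-1 beta, fell from 7.73, 8.89 and 8.44 to 5.40, 4.72 and 5.29, by 3.22 (SE 0.37, adjusted p = 0.00228). Its natural antagonist *Il1rn* fell with it, by 3.38 (SE 0.32), and the decoy receptor *Il1r2* fell by 3.10 (SE 0.37). *Csf3*, the granulocyte growth factor, fell at least 6.53-fold, and *Tnf* fell by 1.62 (SE 0.20, adjusted p = 0.00285) with values of 3.65 to 4.13 at 4 d against 2.36 to 2.91 after PBS. Of 23 cytokines and growth factors 6 fell and 1 rose. Of 27 cytokine receptors and decoys 6 fell and 2 rose, and the falls numbered 3 without 1 d replicate 2 or replicate 3.

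**Figure D2:**
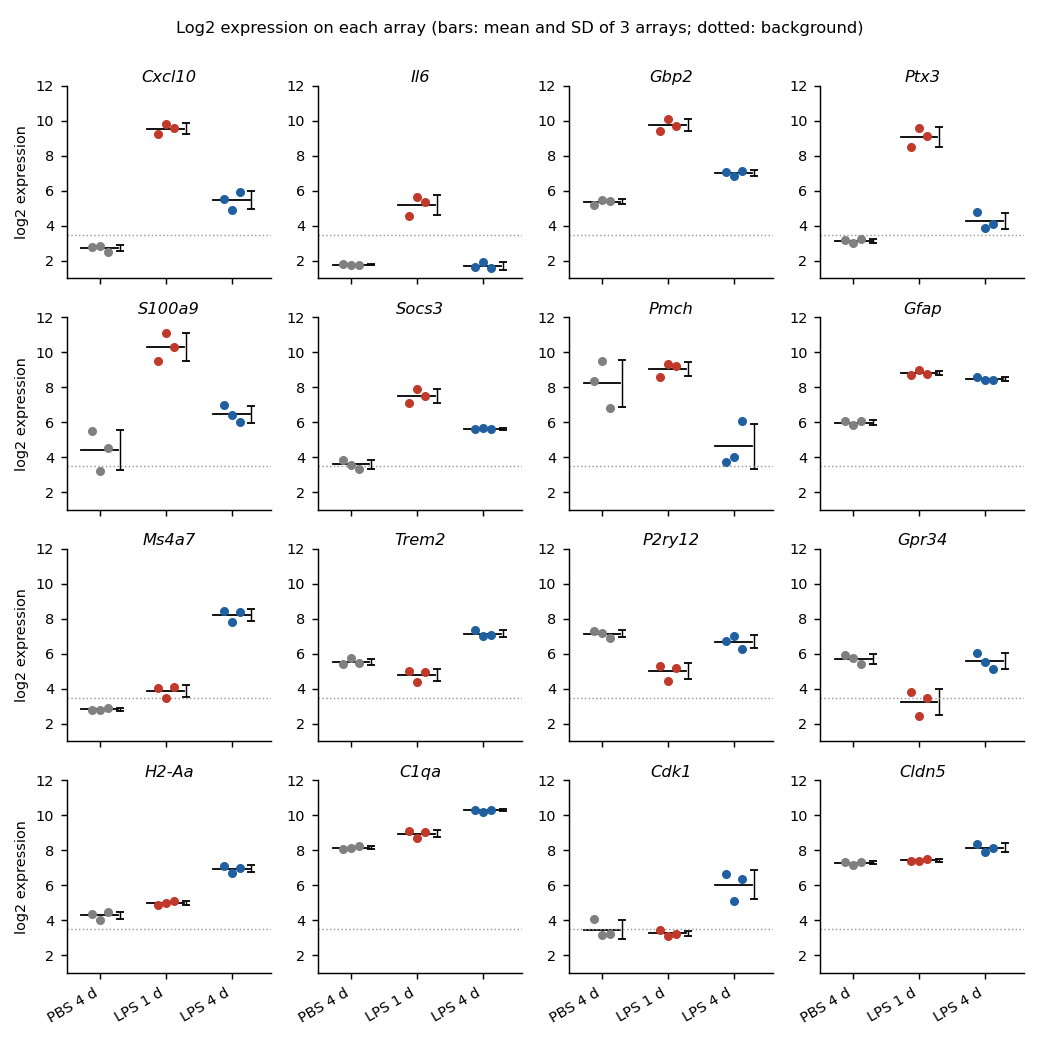
Log2 expression (vertical axis, 1 to 12 in each panel) of 16 genes on each of 9 arrays. Points are arrays in the groups PBS 4 d (grey), LPS 1 d (red) and LPS 4 d (blue), bars give the mean and SD of 3 arrays, and the dotted line is the background at 3.49. *P2ry12* and *Gpr34* dip at 1 d and lie near PBS at 4 d, whereas *Ms4a7* and *H2-Aa* are highest at 4 d.

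Genes of the signalling downstream of these cytokines fell in part. Of 25 NF-kB factors and feedback inhibitors 8 fell and 0 rose, with a list median of -0.42. The largest fall was that of *Socs3*, an inhibitor of cytokine receptor signalling, from 7.13, 7.88 and 7.51 to 5.61, 5.70 and 5.60 (by 1.87, SE 0.19, adjusted p = 0.00116). It was still 2.04 above PBS at 4 d (adjusted p = 0.000325). *Nfkbia*, which encodes the inhibitor that holds NF-kB in the cytoplasm, fell by 1.13 (adjusted p = 0.0131), a call that was lost without 1 d replicate 2 (0.0542) or replicate 3 (0.0521). Without either of these arrays the list count was 5. *Gadd45b* fell by 1.41 (SE 0.19, adjusted p = 0.00525), and its values of 6.54 to 6.88 at 4 d overlapped the PBS values of 6.52 to 6.90. Glucocorticoid-responsive genes, which follow stress hormones in the blood, held 8 falls and 0 rises among 17 measured members, with a median of -0.82. These falls are not separate from those of other lists. *Nfkbia* is also counted with the NF-kB feedback inhibitors, *Mt1* with acute-phase and metal-binding proteins and *Fkbp5* with reactive astrocyte genes. *Plin4*, a lipid droplet protein, fell from 5.87, 6.42 and 5.96 to 3.71, 4.16 and 3.80, by 2.19 (SE 0.25, adjusted p = 0.00204), and was 0.03 from PBS at 4 d. Immediate early genes of neuronal activity held no call among 22, with a list median of -0.24. Over all genes 1.84% were called higher and 1.37% lower, so this lack of calls says little. In 7 of the 22 the LPS 4 d arrays all lay below the LPS 1 d arrays, against 9.76% of all genes. In 2 they all lay above, against 11.4%.

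Interferon-driven genes gave the largest count of falls among the lists. Of 44 antiviral interferon-stimulated genes 24 fell and 0 rose, with a median of -1.02, and of 12 interferon-inducible GTPases 10 fell and 0 rose, with a median of -1.76. Leaving out any one array left 20 to 27 antiviral calls and 9 to 10 GTPase calls. *Gbp2*, a guanylate-binding protein that attacks vacuoles of intracellular pathogens, had 9.43, 10.13 and 9.72 at 1 d and 7.07, 6.85 and 7.16 at 4 d, and fell by 2.73 (SE 0.17, adjusted p = 0.000206). *Ifit1*, which binds foreign RNA, fell from 7.88, 8.28 and 8.28 to 5.51, 5.42 and 5.54, by 2.66 (SE 0.15, adjusted p = 0.000146). *Ifitm3*, a membrane protein that blocks virus entry, fell by 1.47 (SE 0.12, adjusted p = 0.000472). In each of the 3 genes the arrays of the 3 groups did not overlap, and from low to high the order was PBS 4 d, LPS 4 d and LPS 1 d. The excess over PBS went from 4.38 at 1 d to 1.65 at 4 d for *Gbp2*, from 3.85 to 1.20 for *Ifit1* and from 3.40 to 1.93 for *Ifitm3*, with both differences from PBS past the threshold in each (adjusted p up to 0.00184). Among the factors that drive these genes both directions occurred. *Irf7*, *Irf9* and *Stat2* fell by 1.98, 1.10 and 0.97, whereas *Irf8*, a factor required for microglia and other macrophages, rose by 1.12 (adjusted p = 0.00993), from 5.44, 5.32 and 5.51 to 6.79, 6.21 and 6.64. The call of *Irf8* missed the threshold without 1 d replicate 2 (0.0504). Of 14 such factors 5 fell and 1 rose, and the falls numbered 3 without 1 d replicate 2, 1 d replicate 3 or 4 d replicate 3.

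Of 21 MHC class I and peptide-loading genes 4 fell and 0 rose, among them *H2-T23* (by 1.27, SE 0.14, adjusted p = 0.00156), with a list median of -0.43. This count was 2 without 1 d replicate 2, 1 d replicate 3, 4 d replicate 1 or 4 d replicate 3. Of 17 genes of MHC class II presentation, used by macrophages and dendritic cells to show antigen to helper T cells, 7 rose and 0 fell, with a median of 0.55. *H2-Aa* had 4.35, 4.05 and 4.47 after PBS, 4.89, 5.01 and 5.08 at 1 d and 7.11, 6.72 and 6.98 at 4 d. It rose by 1.94 between the LPS times (SE 0.14, adjusted p = 0.000293), against 0.70 between PBS and 1 d. *H2-Eb1* rose by 2.33 (SE 0.23, adjusted p = 0.00111), and its 1 d values of 3.95 to 4.62 overlapped the PBS values of 3.72 to 4.56. The class II count was 4 without 1 d replicate 2 or 4 d replicate 1. The T cell receptor component *Cd3e* was at or below background in all 3 groups.

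**Figure D3:**
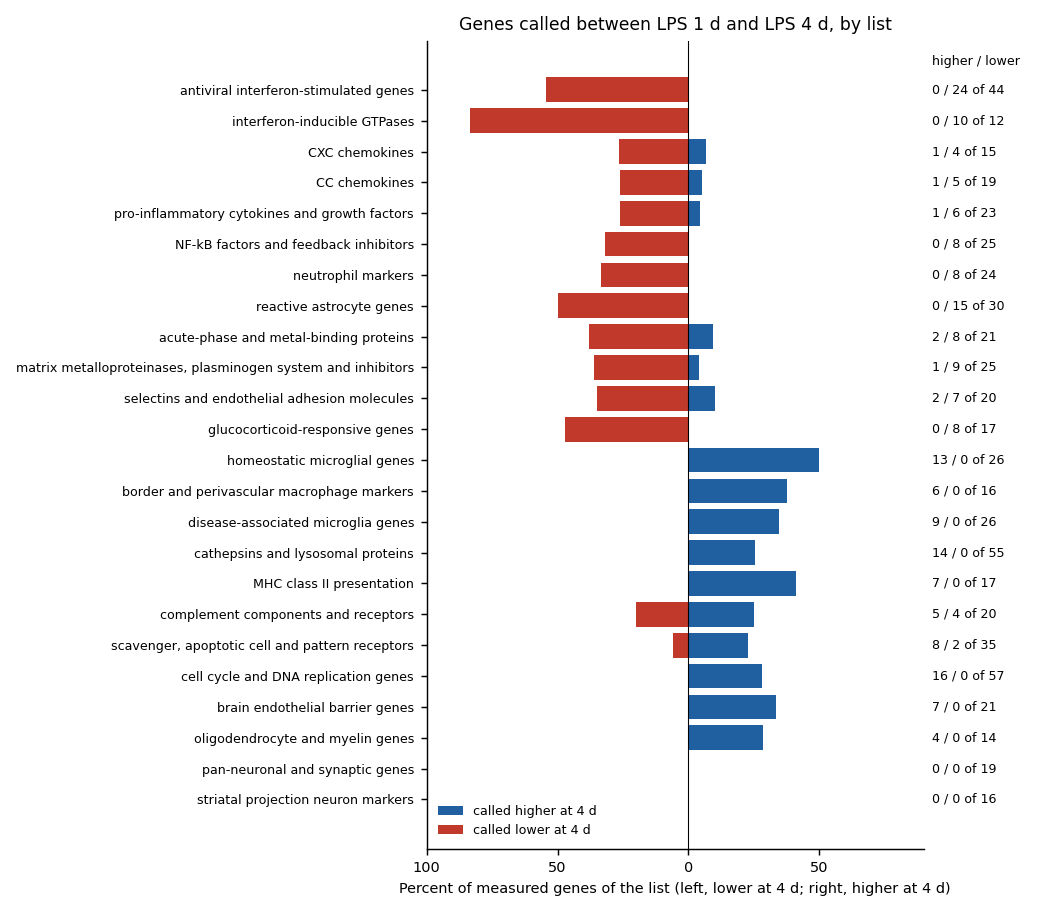
For each of 24 gene lists the bars give the percent of its measured genes called higher (blue, to the right) or lower (red, to the left) at LPS 4 d than at LPS 1 d, and the numbers at the right give the counts. Over all 17097 genes 1.84% were called higher and 1.37% lower.

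Neutrophil transcripts were among those that fell. Of 24 markers of neutrophils, the first leukocytes to enter inflamed tissue, 8 fell and 0 rose, with a median of -1.14. *S100a9*, a calcium-binding protein stored in large amounts in these cells, had 9.50, 11.08 and 10.30 at 1 d and 6.98, 6.40 and 6.03 at 4 d, against 5.49, 3.22 and 4.56 after PBS. It fell by 3.82 (SE 0.57, adjusted p = 0.00827). Its partner *S100a8* fell by 3.09 (adjusted p = 0.0349), a call that was lost without any one of the LPS 1 d arrays, 4 d replicate 2, 4 d replicate 3 or PBS 4 d replicate 3 (adjusted p up to 0.13). The summed linear level of the list was 13.7 to 28.8 times the PBS mean on the LPS 1 d arrays and 3.33 to 6.29 times on the LPS 4 d arrays. The defining receptor *Cxcr2* had 3.44, 5.05 and 4.83 at 1 d, lay at background at 4 d and was not called (-1.35, adjusted p = 0.0964). Of the falls in this list, *Il1r2*, *Hp*, *Clec4e*, *Mmp8*, *Trem1* and *Trem3* are counted in other lists here too. Neutrophils also make *Il1b*, *Cxcl2* and *Il1r2*. The part of the neutrophil level in the cytokine falls given above was not tested. The list count was 5 without 1 d replicate 2, 1 d replicate 3 or 4 d replicate 2 and 4 without 4 d replicate 3. In a homogenate of tissue, fewer cells of a type and less RNA per cell cannot be told apart.

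Genes of reactive astrocytes fell in part, without *Gfap*. Of 30 genes of reactive astrocytes 15 fell and 0 rose, with a median of -0.96. *Ptx3*, a secreted pattern-recognition protein, fell from 8.48, 9.58 and 9.16 to 4.80, 3.90 and 4.13, by 4.80 (SE 0.29, adjusted p = 0.000179). *Timp1*, an inhibitor of matrix metalloproteinases, fell by 2.62 (SE 0.40, adjusted p = 0.00946) and was still 3.47 above PBS. The intermediate filament gene *Gfap*, the classical marker of reactive astrocytes, had 8.72, 8.97 and 8.76 at 1 d and 8.61, 8.41 and 8.44 at 4 d. The groups did not overlap, yet the difference of -0.33 (SE 0.11) did not pass the test (adjusted p = 0.206). *Gfap* was 2.83 above PBS at 1 d and 2.50 above it at 4 d. Several list members, such as *Cxcl10*, *Gbp2* and *Timp1*, are also made by other cells. The count of falls was 9 without 1 d replicate 2 or 4 d replicate 3. Among 15 genes of resting astrocytes 1 rose, the gap junction gene *Gja1* (0.76, SE 0.10, adjusted p = 0.00362), and 0 fell.

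Of 25 metalloproteinase, plasminogen and inhibitor genes 9 fell and 1 rose. *Mmp3*, which degrades basement membrane, fell from 7.36, 8.88 and 7.90 to 3.66, 3.79 and 3.40, by 4.43 (SE 0.36, adjusted p = 0.000472). The riser was the gelatinase *Mmp2* (1.41, SE 0.20, adjusted p = 0.00694), with 3.31, 3.82 and 3.76 at 1 d and 5.21, 4.89 and 5.01 at 4 d. Falls in this list numbered 5 without 1 d replicate 2 or 4 d replicate 3. Of 20 selectins and endothelial adhesion molecules 7 fell and 2 rose, with *Selp*, the selectin that captures rolling leukocytes, 3.99-fold lower (SE 0.23 on the log2 scale, adjusted p = 0.00228). The falls numbered 4 without 1 d replicate 2, 1 d replicate 3, 4 d replicate 1 or 4 d replicate 3. Of 21 acute-phase and metal-binding proteins 8 fell and 2 rose, and the falls numbered 5 without 4 d replicate 3. The 2 rises in that list were those of iron handling genes. *Slc40a1*, which encodes the iron exporter ferroportin, had 6.22 to 6.35 after PBS, 5.03, 5.06 and 5.01 at 1 d and 7.01, 6.29 and 6.61 at 4 d, and rose by 1.60 (SE 0.16, adjusted p = 0.000988). It was thus 1.26 below PBS at 1 d (adjusted p = 0.00155) and 0.34 above it at 4 d (adjusted p = 0.33). The ferritin light chain gene *Ftl1* rose by 0.93 (SE 0.14, adjusted p = 0.00946). *Acod1*, whose product makes the immunomodulatory metabolite itaconate, fell by 2.12 but was 3.46 above PBS at 4 d, and this fall was not called without 1 d replicate 2 (adjusted p = 0.0695).

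**Figure D4:**
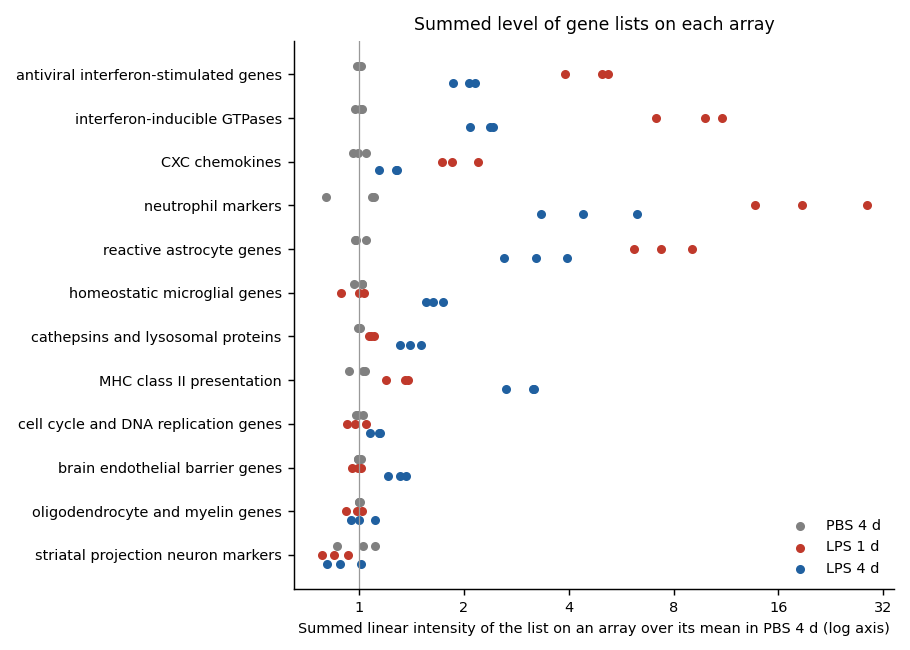
Summed linear intensity of 12 gene lists on each array (3 per group), divided by the mean of the 3 PBS 4 d arrays and drawn on a log axis. Neutrophil markers reach 28.8 on one LPS 1 d array and 3.33 to 6.29 at 4 d, whereas MHC class II genes are highest at 4 d. Sums are dominated by the brightest members of a list.

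Macrophage and microglial genes were among the steepest risers. *Ms4a7*, a tetraspan membrane protein of border and infiltrating macrophages, had 2.80, 2.77 and 2.91 after PBS, 4.05, 3.47 and 4.09 at 1 d and 8.46, 7.84 and 8.38 at 4 d. It rose 20.5-fold between the LPS times (log2 4.36, SE 0.20, adjusted p = 9.2e-05), the largest rise of all called genes. *Cd5l*, a scavenger receptor family protein secreted by macrophages, was at background at 1 d and after PBS and had 5.05, 5.87 and 6.33 at 4 d, so that it rose at least 4.79-fold (adjusted p = 0.000799). Of 16 markers of border and perivascular macrophages 6 rose and 0 fell, with a median of 0.56. The mannose receptor *Mrc1* had 4.22, 3.66 and 4.25 at 1 d and 5.75, 5.85 and 5.84 at 4 d, and rose by 1.77 (SE 0.15, adjusted p = 0.000567). It lay below PBS (4.69 to 4.93) at the first time and above it at the second. Monocyte markers were divided: of 15, 5 fell, including *Plac8* (by 2.37, SE 0.12, adjusted p = 0.00011), and 1 rose, the lysozyme gene *Lyz2*. *Lyz2* had 9.12, 8.98 and 9.18 at 1 d and 10.74, 10.22 and 10.75 at 4 d (1.47, SE 0.14, adjusted p = 0.00102), against 5.77 to 5.96 after PBS. The monocyte chemokine receptor *Ccr2* was near background in all 3 groups and was not called (0.25, adjusted p = 0.515).

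Of 26 homeostatic microglial genes, expressed by microglia of the healthy brain, 13 rose and 0 fell, with a list median of 0.82. They did so from different starting points. The purinergic receptor *P2ry12*, which guides microglial processes to damage, had 7.32, 7.21 and 6.93 after PBS, 5.33, 4.48 and 5.21 at 1 d and 6.76, 7.01 and 6.28 at 4 d. It was 2.14 below PBS at 1 d (adjusted p = 0.00106), rose by 1.68 (SE 0.25, adjusted p = 0.00815) and was 0.47 below PBS at 4 d (adjusted p = 0.397). The receptor gene *Gpr34* was 2.46 below PBS at 1 d, where its mean was at background, and rose at least 3.93-fold (adjusted p = 0.00881) to 6.05, 5.54 and 5.14, which overlapped PBS (5.93, 5.78 and 5.40). The lipid-sensing receptor *Trem2* had 5.03, 4.41 and 4.97 at 1 d and 7.38, 7.02 and 7.05 at 4 d, and rose by 2.35 (SE 0.18, adjusted p = 0.000363). Unlike the preceding genes it ended 1.61 above PBS (adjusted p = 0.00096), and its difference from PBS at 1 d was -0.74 (adjusted p = 0.0612). *Fcrls* rose by 2.76 (SE 0.30, adjusted p = 0.00175) and ended 2.23 above PBS. *Cx3cr1* and *Csf1r*, the receptors for fractalkine and for the main survival factor of microglia, rose by 1.28 and 1.18 from 1 d values within 0.23 of PBS. *Tmem119*, held to be particular to microglia, rose by 1.18 (adjusted p = 0.0488), a call that held without 1 d replicate 2 (0.0178) and was lost without any other single array, PBS arrays included (0.0524 to 0.144). Leaving out any one array gave 12 calls for the list.

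Of 55 cathepsin and lysosomal genes 14 rose and 0 fell, with a median of 0.27 and 12 to 17 calls when any one array was left out. *Ctsd*, a main lysosomal protease, had 8.98 to 9.03 after PBS, 8.99, 8.98 and 9.18 at 1 d and 10.68, 10.24 and 10.38 at 4 d. It rose by 1.39 (SE 0.12, adjusted p = 0.00052), against a difference of 0.05 between 1 d and PBS (adjusted p = 0.889). *Laptm5*, a lysosomal membrane protein of blood-derived cells and microglia, rose by 1.60 (SE 0.08, adjusted p = 0.00011). *Gpnmb*, a glycoprotein of lipid-laden phagocytes, rose from 5.25, 4.58 and 4.53 to 8.24, 6.89 and 7.25, by 2.67 (SE 0.33, adjusted p = 0.00304). Of 26 genes of disease-associated microglia, a state described around amyloid plaques, 9 rose and 0 fell. Among the risers *Itgax* had both means at or below background. Others are counted in further lists here, such as *Lyz2* with monocyte markers and *Apoe* with border macrophage markers. A count of the disease-associated list is therefore not one of microglia alone. *Apoe*, the lipid carrier of that list, rose by 0.80 (SE 0.10, adjusted p = 0.00285) to 10.91, 10.64 and 10.78, from 10.13, 9.90 and 9.92 at 1 d and against 10.13 to 10.19 after PBS. Of 35 scavenger, apoptotic cell and pattern receptors 8 rose and 2 fell, with 5 rises without 1 d replicate 2, 1 d replicate 3 or 4 d replicate 3. The falls were *Clec4e*, a sensor of dead cells and mycobacteria, and the scavenger receptor *Msr1* (by 2.58 and 2.40). Among 8 TREM receptors and partners *Trem2* and its adaptor *Tyrobp* rose, whereas *Trem1*, *Trem3* and *Treml4* fell. The call of *Trem1* (at least 1.38-fold, adjusted p = 0.0227) was lost without 1 d replicate 2, 1 d replicate 3 or any LPS 4 d array (adjusted p up to 0.0708).

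Complement genes moved in both directions. Complement tags debris and microbes for uptake, and C1q starts its classical pathway. *C1qa* had 8.06, 8.13 and 8.24 after PBS, 9.11, 8.71 and 9.05 at 1 d and 10.33, 10.21 and 10.33 at 4 d, and rose by 1.33 (SE 0.11, adjusted p = 0.000528). *C1qb* and *C1qc* rose by 1.33 and 1.61, and *C3ar1*, the receptor for the fragment C3a, by 1.34 (SE 0.19, adjusted p = 0.007). In contrast *Cfb*, a protease of the alternative pathway, fell from 5.77, 5.77 and 5.81 to 4.31, 3.32 and 4.21, by 1.84 (SE 0.26, adjusted p = 0.00713), and *C1ra*, a protease that C1q engages, by 1.19 (SE 0.18, adjusted p = 0.00881). Of 20 complement components and receptors 5 rose and 4 fell. The falls numbered 2 without 1 d replicate 2, 4 d replicate 2 or 4 d replicate 3.

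Some cell cycle genes were called higher at 4 d. *Cdk1*, the kinase that drives mitosis, had 3.43, 3.13 and 3.24 at 1 d and 6.64, 5.11 and 6.36 at 4 d, and rose at least 5.84-fold (adjusted p = 0.00584). *Mki67*, the gene of the proliferation marker Ki-67, had 2.85, 2.14 and 2.80 at 1 d and 5.28, 4.40 and 5.41 at 4 d, and rose at least 2.91-fold (adjusted p = 0.00304). Both genes were at background at 1 d, and in both 4 d replicate 2 was the lowest of its group and still above all other arrays. Of 57 measured cell cycle and replication genes 16 rose and 0 fell, with a median of 0.50. This count rested on the full set of arrays: it was 7 without 1 d replicate 1, 1 d replicate 3, 4 d replicate 1 or 4 d replicate 3, 8 without 1 d replicate 2 and 10 without any one PBS array. The calls of *Cdk1*, *Ube2c* and *Mki67* held without each of the 9 arrays in turn. Which cells divided was not measured.

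Vascular and myelin genes rose in part, several from levels below PBS. Of 21 brain endothelial barrier genes 7 rose and 0 fell, with a median of 0.27. *Slco1c1*, a thyroid hormone transporter of brain capillaries, had 8.64 to 8.78 after PBS, a mean of 7.90 (SD 0.16, n = 3, lowest 7.71) at 1 d and values of 9.13, 8.88 and 9.00 at 4 d. It was 0.82 below PBS at 1 d (adjusted p = 0.00214), rose by 1.10 (SE 0.11, adjusted p = 0.000915) and differed from PBS by 0.28 at 4 d (adjusted p = 0.223). *Slc22a8*, an organic anion transporter, followed the same course, 1.54 below PBS at 1 d and 0.24 above it at 4 d (rise of 1.78, SE 0.18, adjusted p = 0.00104). The efflux pump gene *Abcb1a* rose by 1.02 (SE 0.09, adjusted p = 0.000749) from 0.54 below PBS to 0.49 above it. The tight junction gene *Cldn5* was 0.14 above PBS at 1 d (adjusted p = 0.656) and rose by 0.72 (adjusted p = 0.017), a call lost without 1 d replicate 1, 1 d replicate 2 or 4 d replicate 3 (0.0607 to 0.0727). Of 10 pericyte and smooth muscle markers 3 rose and 0 fell, among them *Vtn* (0.93, SE 0.07, adjusted p = 0.000472). Of 14 oligodendrocyte and myelin genes 4 rose and 0 fell, with *Mbp* not called. *Opalin*, a membrane protein of myelin, had 7.48, 7.59 and 7.38 after PBS, 6.43, 6.13 and 6.43 at 1 d and 7.65, 7.38 and 7.40 at 4 d, and rose by 1.14 (SE 0.12, adjusted p = 0.0012). *Ugt8a*, the enzyme that makes the myelin lipid galactosylceramide, rose by 0.89 (SE 0.10, adjusted p = 0.00209) from 0.92 below PBS to within 0.03 of it.

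Further changes were those of the Schlafen list and of genes in no list. The most reduced gene of all was *Slfn4*, of the Schlafen family of interferon-inducible myeloid genes, with 8.24, 9.33 and 8.99 at 1 d and a mean at background at 4 d, a fall of at least 41.2-fold (adjusted p = 0.00011). Of 9 Schlafen genes 4 fell and 0 rose. Outside the lists the largest falls were those of *Wfdc21* (by 3.31) and the chitinase-like *Chil4* (by 3.13), and the rises included those of *Asb2* (2.58) and the dicarboxylate transporter *Slc13a3* (2.19), and that of *Gkn3*, at background at 1 d, was at least 2.01-fold. *Aif1*, the gene of Iba1, a marker of microglia and other macrophages, rose by 1.90 (SE 0.14, adjusted p = 0.000363), from 7.19, 6.70 and 6.95 to 8.85, 8.63 and 9.05.

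Some calls fell on genes of neighbouring brain regions or of blood cells. *Pmch*, a neuropeptide gene of the lateral hypothalamus, had 8.57, 9.31 and 9.23 at 1 d and 3.76, 4.02 and 6.10 at 4 d, against 8.35, 9.48 and 6.84 after PBS. It fell by 4.41 (SE 0.73, adjusted p = 0.0145), a call lost without 1 d replicate 2 or 3 or 4 d replicate 1 or 2 (0.0511 to 0.0662). The summed level of 23 hypothalamic and thalamic markers was 0.889 to 1.12 times the PBS mean on the LPS 1 d arrays and 0.530 to 0.798 times on the LPS 4 d arrays, with *Pmch* the only member called. Of 18 choroid plexus and ependymal markers 2 fell and 0 rose. The water channel gene *Aqp1* fell by 1.31 (adjusted p = 0.0227), a call lost without 1 d replicates 2 or 3 or 4 d replicates 1 or 3 (0.0649 to 0.0835). *Otx2* fell by 1.09 (adjusted p = 0.0345), a call lost without 1 d replicates 2 or 3, 4 d replicates 2 or 3 or PBS 4 d replicate 1 (0.0627 to 0.126). The plexus gene *Ttr* was not called (-0.83, adjusted p = 0.168), and the list summed to 0.878 to 1.21 times the PBS mean at 1 d and 0.451 to 0.790 times at 4 d. Of 6 erythroid markers the haemoglobin genes *Hba-a1* and *Hbb-b2* fell (by 1.47 and 1.35), and both calls held without 1 d replicate 3 or 4 d replicate 2 but were lost without any other array (adjusted p up to 0.118 and 0.11). The erythroid list summed to 0.915 to 1.73 times the PBS mean at 1 d and 0.359 to 0.662 times at 4 d. The part of dissection or of residual blood in these differences was not tested.

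Several pathways held no call or nearly none between the 2 times. None of 26 genes of hypoxia, glycolysis and glucose uptake, none of 17 genes of cholesterol synthesis and none of 28 subunits of oxidative phosphorylation was called, with list medians of 0.04, -0.12 and 0.0022. Over all genes 1.84% were called higher and 1.37% lower, so a lack of calls in lists of this size says little. The change was positive in 2 of the 17 cholesterol genes. Their summed level was 0.910 to 0.941 times the PBS mean at 1 d and 0.804 to 0.894 times at 4 d. Of 33 collagen, matrix and fibroblast genes 2 fell, *Dcn* and the basement membrane collagen *Col4a1*, and 0 rose, with the call of *Dcn* (by 0.95) lost without 1 d replicate 3 or 4 d replicate 1 (0.0549 and 0.0516). Markers of T and natural killer cells, of B cells and of dendritic cells held 1 call each among 20, 8 and 10 genes. Prostaglandin enzymes held calls in both directions: of 19, 2 fell, among them the inducible cyclooxygenase *Ptgs2* (by 1.15, SE 0.15, adjusted p = 0.00477), and 3 rose, among them the thromboxane synthase *Tbxas1* (0.91, SE 0.12, adjusted p = 0.00383). Without 1 d replicate 3, 4 d replicate 1 or 4 d replicate 3 the rises numbered 1. Both receptors for transforming growth factor beta, *Tgfbr1* and *Tgfbr2*, rose, by 1.12 (SE 0.11, adjusted p = 0.00087) and 1.13 (SE 0.11, adjusted p = 0.00105).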

How the data were processed

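RNA from the injected side of the brain was measured on 9 Affymetrix HT mouse arrays, each a pool of 3 mice, in the groups LPS 1 d, LPS 4 d and PBS 4 d (3 arrays each, grouped by their labels). The authors labelled amplified RNA with biotin and summarised the scans with the RMA method of the program Affymetrix Expression Console, the version of which no label or method used here names. The deposited values are on the log2 scale, 1 per probe set and array, and include the authors' background correction and normalization. RMA leaves low signals compressed towards the background, so changes of dim genes are understated. Quantile normalization gives all arrays nearly one distribution, so a shift common to all genes cannot be seen.

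After 104 control entries were left out, group means of the 9 arrays were fitted to 45037 probe sets with limma 3.58.1 in R 4.3.3, with moderated variances (9.02 degrees of freedom in total), the contrast LPS 4 d minus LPS 1 d and Benjamini-Hochberg adjustment over all probe sets. The PBS arrays entered the estimate of the spread. The differences of each LPS group from PBS share arrays with this contrast and are given beside it as values. Of the probe sets 28898 had 1 gene symbol in the platform annotation, 551 had several and 15588 had none, and genes were named from the first kind only. Each of 17097 genes was represented by its probe set with the highest mean. Where one group's mean was at or below background, the fold was computed against the higher of background and the array's own value, and is given as a lower bound. The script was tested on simulated data. The number of arrays limits the precision.

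The comparison, 57 gene lists (1066 measured genes) and the tests were chosen with earlier results of these data known, so counts and medians of lists are descriptions. Genes to name were drawn from a fixed set of 201, of which the text gives a part: the 15 largest rises and falls, up to 4 called members of a list in each direction, the 8 largest of each direction outside the lists, the 5 largest in linear intensity, and fixed cell type markers. Linear levels are 2 to the power of the log2 value. Alternatives were other scalings, variance models, fold thresholds, sets of arrays, probe set choices and a filter on dim probe sets.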

Additional observations from a re-analysis of the deposited data

How the results depend on the processing

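The counts of probe sets called higher and lower (500 and 383) and of genes (315 and 234) kept within 1.5 times their value under other scalings, an intensity trend, a filter on dim probe sets, the mean of a gene's probe sets and the 6 LPS arrays alone with limma. With a fold change of at least 2 they were 238 and 238 probe sets and 165 and 155 genes. Without moderation of the variance, on the spread pooled over the 3 groups, they were 248 and 171 probe sets and 154 and 112 genes. An ordinary test on the 6 LPS arrays alone called 1 and 0 probe sets and 0 and 0 genes, where limma on the same arrays called 223 and 170 genes and 3106 and 2830 probe sets had an unadjusted p under 0.05 in the fit of all 9 arrays. Leaving out each array in turn gave 325 to 604 probe sets higher and 262 to 391 lower, and 202 to 359 genes higher and 154 to 239 lower, with the low values for higher calls and for genes called lower reached without LPS 1 d replicate 2. Of 193 named called genes 139 kept their call without any one array, 173 with the replicate number as a block and 116 without moderation of the variance. None of these named called genes reversed its direction under any alternative. Named genes without a call were not checked for a reversal.

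The replicate numbers did not pair the arrays, since the deviations of LPS 1 d and LPS 4 d arrays of the same number correlated at -0.03, -0.012 and 0.021, and 421 and 313 probe sets (260 and 190 genes) were called with the replicate number as a block. What the arrays limit is the dim end of the scale, where 5344 genes had a mean at or below background over the 9 arrays.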

Other observations

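Of the 315 genes called higher at 4 d, 200 were in none of the 57 gene lists, against 87 of the 234 called lower. Probe sets without a single gene symbol added 98 higher and 78 lower calls that cannot be named here. Where a called gene had over 1 probe set, another of them was called the same way for 40 of 124 genes called higher and 38 of 77 called lower, and none was called the other way.

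Among the risers outside the lists, *Asb2*, which encodes a subunit of a ubiquitin ligase, had 3.86, 4.09 and 4.36 after PBS, 4.24, 3.90 and 3.85 at 1 d and 6.73, 6.23 and 6.76 at 4 d, and rose by 2.58 (SE 0.18, limma adjusted p = 0.000293) between the LPS times against a difference of -0.11 between 1 d and PBS. *Gkn3* had 4.79, 4.01 and 3.83 after PBS, was at background on the LPS 1 d arrays and read 4.97, 4.09 and 4.44 at 4 d. *Pld4*, *Ptpn18* and *Capn3* rose by 2.11, 2.03 and 2.19, and each lay within 0.61 of PBS at 1 d. *Gpr17*, a receptor of oligodendrocyte precursors on their way to myelination, is in a list, unlike the preceding genes. It rose by 1.59 (SE 0.20, adjusted p = 0.00348), from 6.18, 5.63 and 6.14 to 7.96, 7.21 and 7.57. Of 8 measured oligodendrocyte precursor markers 1 rose, this gene, and 0 fell, with a list median of 0.09.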
